A study of Rattus norvegicus with 29 samples.

Results

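PPAR-alpha is the nuclear receptor that turns on fatty acid use in liver, and 34 genes that it controls or that carry out fatty acid uptake and oxidation were followed here through treatment of rats with the chromanol antioxidant PMCol. The genes were chosen by name from textbook knowledge of the pathway, but with earlier results of these data known. Each was read from the array's transcript cluster annotated with that gene symbol alone. Of the 34 genes, 32 were measured, out of 14324 genes with a single symbol and 27342 clusters in all. Acaa1a, the peroxisomal thiolase, lay in a cluster shared with Acaa1b, and Decr2, a peroxisomal dienoyl-CoA reductase, in a cluster shared with Nme4, so neither is given. Acaa1b also had a cluster of its own and is given with the further genes below. Pentamethylchromanol (PMCol) is a vitamin E analogue without the long side chain. The animals were male Crl:CD Sprague-Dawley rats aged 6 to 7 weeks, dosed once a day by oral gavage, and 1 array was made from the left liver lobe of each. The groups were 2000 mg/kg for 7 doses with killing on day 8 (n = 6), vehicle for 7 doses on day 8 (n = 6), 2000 mg/kg for 28 doses on day 29 (n = 5), 200 mg/kg for 28 doses on day 29 (n = 6) and vehicle for 28 doses on day 29 (n = 6). Vehicle animals received 1% methylcellulose in water by the same route. Rats given 200 mg/kg for 7 doses were not analysed here.

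PPAR-alpha pairs with the retinoid X receptor, binds fatty acids and their derivatives, and raises transcription of genes that take up, activate and burn fatty acids. In rodent liver its activation is known for making peroxisomes multiply and for strong induction of peroxisomal beta-oxidation enzymes and of Cyp4a genes. Peroxisomes shorten very long chains. Mitochondria oxidise the common long chains, which enter as carnitine esters, and the products feed energy supply and ketone bodies. The genes were ordered here by these roles: uptake and activation, the carnitine shuttle, mitochondrial enzymes, peroxisomal enzymes, lipid droplet proteins, and the receptor with its regulators and other targets.

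Values are log2 signals minus the median of the same cluster over the 29 arrays, so they compare animals for 1 gene and give no level of expression. A rounding pattern in the stored digits showed only which clusters were stored at 8 or above in every animal. A difference of 1 on this scale is a 2-fold difference. Fold changes are given on the log2 scale ± SE from limma, a linear model fitted to all clusters and all animals, with p-values adjusted by Benjamini-Hochberg across the 27342 clusters. A gene is said to have risen or fallen only where adjusted p was below 0.05. The array medians lay between -0.023 and 0.029. Vehicle day 29 replicate 1 stood apart in its spread over clusters, with an SD of 0.287 against 0.133 to 0.242 in the other arrays. The calls that it changed are given also without it, as are values of Ppara, Vnn1 and Cyp4a1. RNA came from whole liver tissue, in which fewer cells of a type and less RNA per cell cannot be told apart. Centred values give no level beyond that rounding pattern, and the liver label itself was not checked with them. Of 8 hepatocyte markers 6 fell and 0 rose after 2000 mg/kg at day 8, with a median of -0.21 and Asgr1 lowest at -0.49 ± 0.07. At day 29, 5 fell and 0 rose, with a median of -0.24. Of all clusters 9.32% fell at day 8 and 9.55% at day 29. The hepatocyte marker mean per animal was -0.27 to -0.07 after 2000 mg/kg at day 8, against -0.10 to 0.13 in vehicle animals. At day 29 it was -0.16 to -0.09 after 2000 mg/kg, against 0.07 to 0.14 in vehicle animals, and 0.02 to 0.06 after 200 mg/kg, so these 3 ranges did not overlap. The markers' part in the falls below was not tested.

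After 7 doses of 2000 mg/kg, Aqp7, Cpt1b and Cd36 had the largest rises among the 32 genes. Aqp7, the glycerol and water channel, rose 5.02-fold, Cpt1b, the muscle form of the carnitine palmitoyltransferase that starts mitochondrial entry, 4.19-fold, and Cd36, the fatty acid translocase, 3.73-fold. Pex11a, a peroxin that makes peroxisomes divide, rose 2.01-fold, and Ehhadh, the peroxisomal bifunctional enzyme, rose by 0.58 on the log2 scale. Of the 32 genes, 13 rose and 2 fell, where 9.32% of all clusters rose and 9.32% fell (18.6% in either direction). The median log2 fold change of the 32 was 0.15, against 0.00 over all clusters. Among the 28 genes whose stored signal was 8 or more in all animals, 10 rose and 2 fell, with a median of 0.14, beside 1548 rises and 1296 falls among 7797 clusters of that kind, with a median of 0.02. Cd36, Cpt1b, Aqp7 and Plin5 are the 4 measured genes without such a signal.

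After 28 doses of 2000 mg/kg, Cd36 and Aqp7 were still higher than in vehicle animals, and 4 of the 10 mitochondrial beta-oxidation enzymes fell. Of the 32 genes, 8 rose and 6 fell, where 12.1% of all clusters rose and 9.55% fell (21.6% in either direction). The median log2 fold change was -0.02, against 0.00 over all clusters. With Cd36, Cpt1b, Aqp7 and Plin5 set aside, the 28 genes left gave 5 rises and 6 falls, with a median of -0.05. The 7797 clusters stored at 8 or above gave 1854 rises and 1322 falls, with a median of 0.04. The 8 that rose, Aqp7, Cd36, Cpt1b, Cpt2, Ehhadh, Pex11a, Ppara and Vnn1, had all risen at day 8. The falls were those of Acadm, Hadha, Acadvl, Hadh, Fabp1 and Pdk4, of which Acadm and Hadha had also fallen at day 8. No gene was called in opposite directions at the 2 days, and 13 were called at neither. Without vehicle day 29 replicate 1 the counts over the 32 genes were 8 rises and 8 falls.

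At 200 mg/kg for 28 doses 0 of the 32 genes rose and 1 fell, where 1.37% of all clusters rose and 1.42% fell (2.78% in either direction). At an unadjusted p below 0.05, limma gave 2 higher and 10 lower, beside 3744 of all 27342 clusters in either direction. The fall was that of Acadm, the medium-chain acyl-CoA dehydrogenase, at -0.21 ± 0.06 (limma adjusted p = 0.0417). It was lost when any of 9 of the 12 animals was left out, namely vehicle replicates 2 to 6 and 200 mg/kg replicates 2, 3, 5 and 6, with adjusted p up to 0.101. Leaving out 200 mg/kg replicate 1 gave 5 falls, adding Hadh, Fabp1, Plin2 and Pdk4 (adjusted p of 0.0156 to 0.0492). Hadha passed without vehicle replicate 5 or 200 mg/kg replicate 4 (adjusted p down to 0.0386). The median over the 32 genes was -0.08, against 0.00 over all clusters. Between the doses at day 29, 6 genes were higher after 2000 mg/kg than after 200 mg/kg and 0 were lower, where 6.05% of all clusters were higher and 3.84% lower (9.89% in either direction). At an unadjusted p below 0.05, 7 were higher and 0 lower by limma, beside 6173 of all 27342 clusters in either direction. The 6 were Aqp7, Cpt1b, Cd36, Ehhadh, Vnn1 and Ech1, of which Ech1 was lost without 2000 mg/kg replicate 2 (limma adjusted p = 0.0553). Both dose comparisons at day 29 share animals, so each is given by its own values below.

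**Figure D1:**
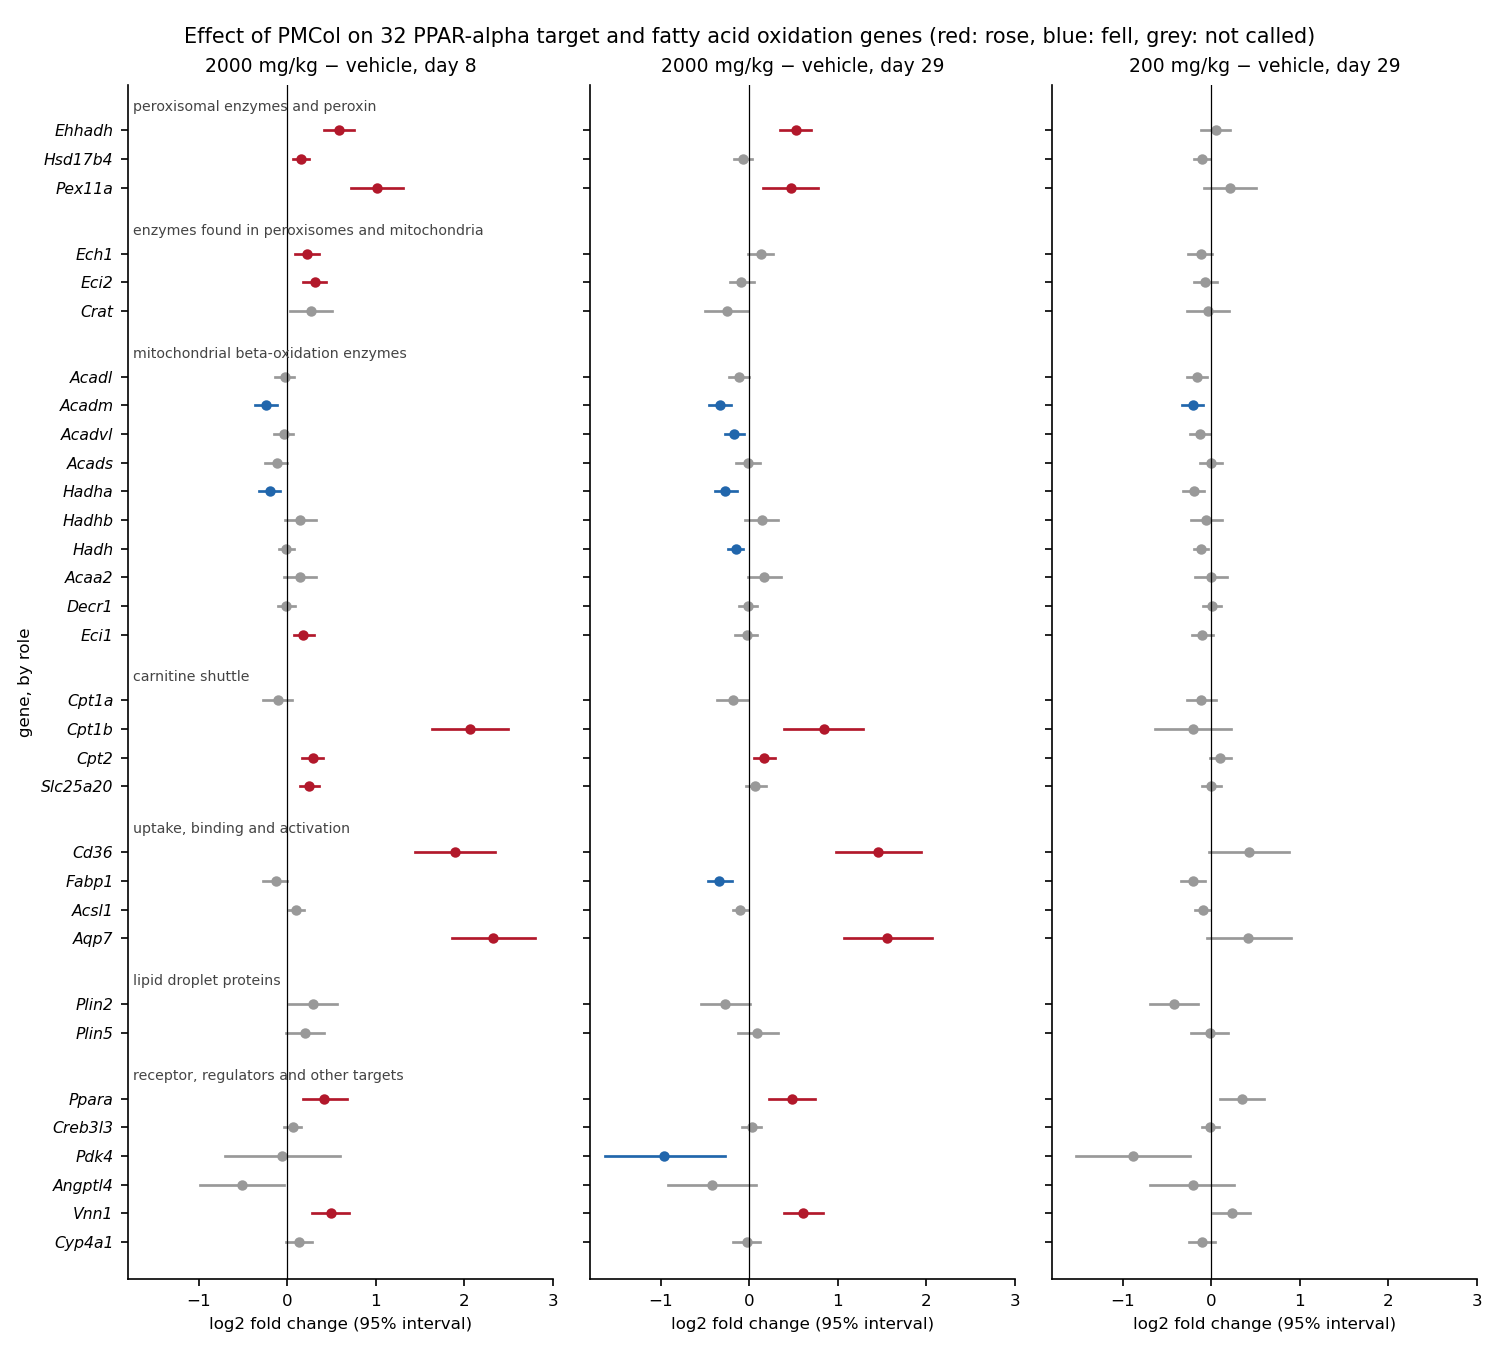
Log2 fold change of 32 genes, grouped by role down the page, for 2000 mg/kg against vehicle at day 8, 2000 mg/kg against vehicle at day 29 and 200 mg/kg against vehicle at day 29. Points are limma estimates, bars 95% intervals, red genes rose and blue genes fell at adjusted p below 0.05. Aqp7, Cpt1b and Cd36 lie farthest to the right at day 8, while the mitochondrial enzymes lie between -0.33 and 0.18 at 2000 mg/kg.

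Promoters are shown for 4 genes that rose with the high dose and for 4 mitochondrial or binding genes that did not, because PPAR-alpha is known to bind a direct repeat with 1 base between its copies. RefSeq promoter windows of GRCr8 run from 250 bases before to 50 bases after the start site, and 26 of the 34 genes had a window (27 windows, with 2 for Plin2). Aqp7, Cpt1b, Vnn1, Ech1, Cyp4a1, Decr1, Acadl and Acaa2 had none. Capitals mark the best match to AGGTCA, any 1 base and AGGTCA again (on either strand) where it has 3 or fewer differences, and positions count from the start site as 0. Cd36 and Pex11a rose and have no capitals, since their best matches had 4 and 5 differences. The genes shown are examples and do not stand for the rest. Of the rest that rose, Cpt2, Ppara, Hsd17b4, Eci1 and Eci2 each had best matches of 4 differences. Of those that did not rise, Acadm and Acsl1 had 5, and Acads, Cpt1a, Pdk4 and Angptl4 had 4. Hadh, Plin5 and 1 window of Plin2 had 3, and Crat and Creb3l3 had 2.
Cd36, chr4:18246332-18246631, plus strand: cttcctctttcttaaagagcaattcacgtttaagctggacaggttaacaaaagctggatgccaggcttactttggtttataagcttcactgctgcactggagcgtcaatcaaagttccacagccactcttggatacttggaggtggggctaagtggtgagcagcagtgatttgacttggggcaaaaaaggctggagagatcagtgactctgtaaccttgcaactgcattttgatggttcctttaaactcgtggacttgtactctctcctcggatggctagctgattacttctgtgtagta
Pex11a, chr1:143096442-143096741, minus strand: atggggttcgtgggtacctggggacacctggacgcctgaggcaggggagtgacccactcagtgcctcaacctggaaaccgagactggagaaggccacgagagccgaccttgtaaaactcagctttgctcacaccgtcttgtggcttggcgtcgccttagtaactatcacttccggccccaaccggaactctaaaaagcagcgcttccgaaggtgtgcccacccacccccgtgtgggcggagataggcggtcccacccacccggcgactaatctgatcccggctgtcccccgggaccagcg
Ehhadh, which rose at both days and whose match of 3 differences spans the start site (-8 to 4), chr11:92746159-92746458, plus strand: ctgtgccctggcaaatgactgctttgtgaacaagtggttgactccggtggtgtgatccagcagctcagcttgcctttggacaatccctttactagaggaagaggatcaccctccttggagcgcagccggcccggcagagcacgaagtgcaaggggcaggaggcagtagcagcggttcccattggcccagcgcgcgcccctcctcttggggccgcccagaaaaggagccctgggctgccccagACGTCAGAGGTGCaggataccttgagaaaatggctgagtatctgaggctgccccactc
Slc25a20, which rose at day 8 and has a match of 2 differences at 15 to 27, chr8:118243323-118243622, plus strand: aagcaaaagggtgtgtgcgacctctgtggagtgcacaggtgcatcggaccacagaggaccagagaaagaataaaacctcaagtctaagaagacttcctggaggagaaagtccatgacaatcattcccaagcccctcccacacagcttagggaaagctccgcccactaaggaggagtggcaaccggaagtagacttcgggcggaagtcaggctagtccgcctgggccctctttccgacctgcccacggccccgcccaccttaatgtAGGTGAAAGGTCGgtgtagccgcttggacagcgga
Fabp1, which fell at day 29 and has a match of 1 difference at -77 to -65 on the minus strand, chr4:104749090-104749389, plus strand: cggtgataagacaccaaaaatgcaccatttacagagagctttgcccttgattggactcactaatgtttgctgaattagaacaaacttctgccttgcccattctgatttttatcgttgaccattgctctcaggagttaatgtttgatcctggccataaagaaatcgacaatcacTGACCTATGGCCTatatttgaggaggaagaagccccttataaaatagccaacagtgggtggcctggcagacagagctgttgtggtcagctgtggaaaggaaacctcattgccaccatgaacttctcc
Acadvl, which fell at day 29 and has a match of 1 difference at -17 to -5, chr10:55236656-55236955, minus strand: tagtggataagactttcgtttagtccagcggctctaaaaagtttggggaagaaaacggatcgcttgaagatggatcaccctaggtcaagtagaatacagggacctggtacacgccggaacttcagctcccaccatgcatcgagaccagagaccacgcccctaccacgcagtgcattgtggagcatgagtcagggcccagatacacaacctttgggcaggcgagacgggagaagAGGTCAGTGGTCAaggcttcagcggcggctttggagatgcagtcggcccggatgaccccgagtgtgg
Hadha and Hadhb, the 2 subunits of the mitochondrial trifunctional protein, start head to head and share these 200 bases with 1 match of 3 differences, chr6:31907551-31907750, plus strand: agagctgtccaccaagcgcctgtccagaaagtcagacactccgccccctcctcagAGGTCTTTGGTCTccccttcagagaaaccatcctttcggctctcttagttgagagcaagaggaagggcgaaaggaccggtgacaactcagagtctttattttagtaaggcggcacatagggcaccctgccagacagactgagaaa
In both strands of all 33469 windows, an exact copy of this direct repeat stood in 18 (0.0538%) and in 0 of the 27 windows of these genes. Matches with at most 1 difference stood in 0.439% of all windows and in 2 of the 27, and with at most 2 differences in 3.77% of all windows and in 5 of the 27, those of Fabp1, Acadvl, Creb3l3, Crat and Slc25a20. The search with differences was added after the exact one had found none. The single repeat AGGTCA, which overlaps the longer motif, stood in 16.2% of all windows and in 8 of the 27. A match describes letters only, and their absence from these 300 bases says nothing about binding.

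Of the 4 genes for uptake, binding and activation, Cd36 and Aqp7 rose at both days of 2000 mg/kg. Cd36 carries fatty acids across the cell membrane, and its values after 2000 mg/kg at day 8 had a lowest of 0.91, a median of 1.84 and a highest of 2.35, against -0.35, -0.14 and 0.10 in vehicle animals. Every treated animal lay above every vehicle animal, a rise of 1.90 ± 0.22 (limma adjusted p = 3.08e-07). At day 29 the 5 values after 2000 mg/kg were 0.39, 0.79, 0.16, 0.97 and 1.38, against a lowest of -0.88, a median of -0.72 and a highest of -0.57 in vehicle animals. Again no treated animal overlapped the vehicle range, with a rise of 1.46 ± 0.23 (limma adjusted p = 2.73e-05). The animals given 200 mg/kg ran from -0.84 through a median of -0.47 to 0.49, partly inside the vehicle range, and the difference from vehicle was 0.43 ± 0.22 (limma adjusted p = 0.405). The 2000 mg/kg group exceeded the 200 mg/kg group by 1.03 ± 0.23 (limma adjusted p = 0.0038), although the 2 ranges overlapped.

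Aqp7 lets glycerol through the membrane and is known mainly from fat cells. After 2000 mg/kg at day 8 its lowest, median and highest values were 1.65, 2.13 and 2.82, against -0.51, -0.24 and 0.49 in vehicle animals. The groups were far apart, and the rise was 2.33 ± 0.23 (limma adjusted p = 1.62e-08). At day 29 the 2000 mg/kg animals had 1.06, 1.03, -0.11, 1.43 and 1.28, against -0.91, -0.63 and -0.20 as lowest, median and highest in vehicle animals. All 5 were above the vehicle range, but replicate 3 only just, and the rise was 1.56 ± 0.24 (limma adjusted p = 1.84e-05). Aqp7 after 200 mg/kg ran from -0.93 through -0.14 to 0.44, a difference of 0.42 ± 0.23 from vehicle (limma adjusted p = 0.438), and the 2000 mg/kg group stood 1.14 ± 0.24 above them (limma adjusted p = 0.00221).

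Fabp1, the liver fatty acid binding protein, and Acsl1, the main acyl-CoA synthetase that activates long chains, did not follow Cd36. Fabp1 after 2000 mg/kg at day 8 had -0.15, -0.05 and -0.02 as lowest, median and highest, against -0.02, 0.04 and 0.17 in vehicle animals, so that the ranges met, with a difference of -0.13 ± 0.06 (limma adjusted p = 0.165). Day 29 values of Fabp1 were -0.21, 0.00, -0.03, -0.33 and -0.30 after 2000 mg/kg, against 0.05, 0.14 and 0.29 in vehicle animals. No treated animal reached the vehicle range, and Fabp1 fell by 0.34 ± 0.07 on the log2 scale (limma adjusted p = 0.000495). After 200 mg/kg Fabp1 ran from -0.26 through -0.05 to 0.20, overlapping vehicle, at -0.21 ± 0.06 (limma adjusted p = 0.0858, and 0.0156 without 200 mg/kg replicate 1). Acsl1 had 0.04, 0.10 and 0.24 after 2000 mg/kg at day 8, against -0.06, 0.01 and 0.08 in vehicle animals, a difference of 0.10 ± 0.04 (limma adjusted p = 0.0645). At day 29 it had -0.01, -0.13, -0.09, -0.10 and -0.14, against -0.11, 0.02 and 0.05 in vehicle animals, a difference of -0.10 ± 0.04 (limma adjusted p = 0.0911). Acsl1 after 200 mg/kg ran from -0.19 through -0.09 to 0.01, at -0.09 ± 0.04 (limma adjusted p = 0.254). The Acsl1 groups overlapped in all 3 comparisons. Acsl1 passed the test at day 8 without vehicle replicate 1 or 2000 mg/kg replicate 3 (adjusted p down to 0.0451), and at day 29, in the lower direction, without vehicle replicate 1 (adjusted p = 0.035).

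The carnitine shuttle moves activated fatty acids into mitochondria, and its members split by isoform. Cpt1a, the liver form of the entry enzyme and a known PPAR-alpha target, had -0.05, 0.07 and 0.33 after 2000 mg/kg at day 8, against 0.16, 0.21 and 0.38 in vehicle animals. The groups overlapped, and the difference was -0.11 ± 0.08, with a 95% interval from -0.28 to 0.05 (limma adjusted p = 0.379). At day 29 Cpt1a had -0.01, 0.03, -0.13, -0.36 and -0.46 after 2000 mg/kg, against -0.28, 0.04 and 0.16 in vehicle animals, a difference of -0.18 ± 0.08 (limma adjusted p = 0.127). Without vehicle day 29 replicate 1 this difference was -0.24 and passed the test (limma adjusted p = 0.0339). After 200 mg/kg it ran from -0.21 through -0.11 to -0.01, at -0.12 ± 0.08 (limma adjusted p = 0.592).

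Cpt1b, the muscle form, behaved otherwise. After 2000 mg/kg at day 8 its lowest, median and highest values were 1.38, 2.19 and 2.83, against -0.32, 0.03 and 0.43 in vehicle animals. The groups did not overlap, and the rise was 2.07 ± 0.21 (limma adjusted p = 2.58e-08). At day 29 the animals given 2000 mg/kg had 0.19, 1.04, -0.21, 0.85 and 0.58, against -0.68, -0.41 and 0.09 in vehicle animals. Replicate 3 lay inside the vehicle range and the other 4 above it, with a rise of 0.84 ± 0.22 (limma adjusted p = 0.00553). Cpt1b after 200 mg/kg ran from -0.85 through -0.64 to -0.23, a difference of -0.21 ± 0.21 from vehicle (limma adjusted p = 0.764), and every 2000 mg/kg animal exceeded every 200 mg/kg animal, by 1.06 ± 0.22 on average (limma adjusted p = 0.00177). Chkb, the choline kinase gene listed next to Cpt1b in the GRCr8 gene table, rose by 0.22 ± 0.08 at day 8 (limma adjusted p = 0.0499) and had a value of -0.12 ± 0.08 at day 29 (limma adjusted p = 0.336). Cpt2, which rebuilds acyl-CoA inside the mitochondrion, rose by 0.29 ± 0.06 at day 8 and 0.17 ± 0.06 at day 29. The day 29 call of Cpt2 was lost when any of 7 of 11 animals was left out (vehicle replicates 3 to 6 and 2000 mg/kg replicates 2 to 4), with adjusted p up to 0.112. Slc25a20, the carnitine-acylcarnitine carrier of the inner membrane, rose by 0.25 ± 0.05 at day 8 with no overlap between groups and had 0.07 ± 0.06 at day 29.

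Since Cd36, Aqp7 and Cpt1b are also genes of other cell types, markers of those cells were set beside them. The shares of all clusters that rose and fell were 9.32% and 9.32% at day 8, and 12.1% and 9.55% at day 29. Of 12 striated muscle markers 0 rose and 0 fell by limma at either day of 2000 mg/kg, also at an unadjusted p below 0.05 (medians -0.02 and 0.00), and their mean per animal lay between -0.06 and 0.08 after 2000 mg/kg at day 8, against -0.05 to 0.07 in vehicle animals. Of 10 adipocyte markers 1 rose, Pparg, and 2 fell at day 8, and the marker mean was -0.05 to 0.12 after 2000 mg/kg, against -0.01 to 0.06 in vehicle animals. At day 29, 1 of the 10 rose and 1 fell, with means of -0.05 to 0.10 after 2000 mg/kg, against -0.03 to 0.05 in vehicle animals. Pparg, the fat cell relative of PPAR-alpha, rose by 0.36 ± 0.12 at day 8 and 0.39 ± 0.12 at day 29. Of 11 macrophage and Kupffer cell markers all fell at day 8 (median -0.98), opposite in direction to Cd36, with means per animal of -0.66 to 0.11 after 2000 mg/kg, against 0.38 to 1.32 in vehicle animals. At day 29, 0 of the 11 rose or fell, also at an unadjusted p below 0.05 (limma). Of 3 measured endothelial markers 2 fell at day 8, with means of -0.18 to 0.09 after 2000 mg/kg, against 0.00 to 0.49 in vehicle animals, and 0 changed at day 29, with 1 lower at an unadjusted p below 0.05 (limma). Marker levels, as distinct from differences, cannot be read from centred values, and the markers' part in the rises was not tested.

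**Figure D2:**
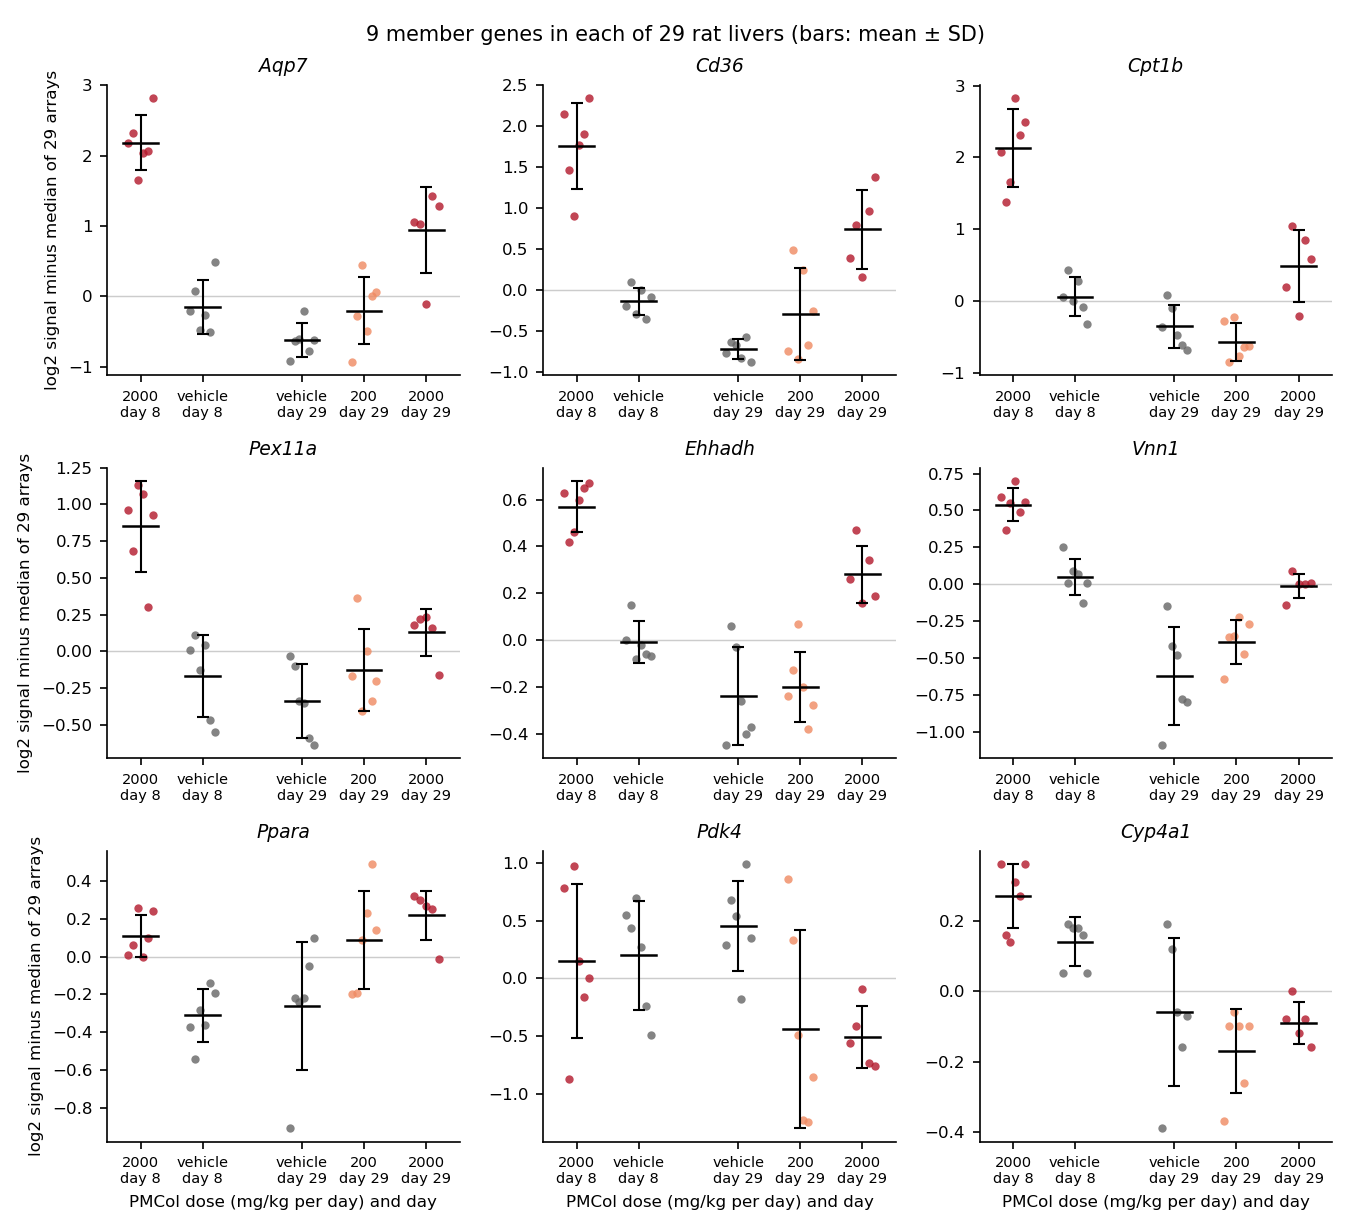
Values of 9 genes in each of 29 livers, as log2 signal minus the gene's median over the arrays, with 2000 mg/kg and vehicle at day 8 and the dose series at day 29 along the horizontal axis. Points are animals and black bars the group mean ± SD. Aqp7, Cd36 and Cpt1b stand highest after 2000 mg/kg at day 8, Pdk4 is lowest in the treated day 29 groups, and the Cyp4a1 groups overlap.

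Mitochondrial beta-oxidation enzymes had log2 fold changes between -0.33 and 0.18 at 2000 mg/kg. Of 10 measured, 1 rose and 2 fell at day 8 (median -0.02), 0 rose and 4 fell at day 29 (median -0.07), and 0 rose and 1 fell at 200 mg/kg (median -0.11), with all-cluster medians of 0.00. Of all clusters 9.32% rose and 9.32% fell at day 8, 12.1% and 9.55% at day 29, and 1.37% and 1.42% at 200 mg/kg. These 10 genes all had stored values of 8 or more. Of the 7797 clusters of that kind 1548 rose and 1296 fell at day 8, and 1854 and 1322 at day 29. At 200 mg/kg the numbers were 246 and 239. Acadm fell by 0.24 ± 0.06 at day 8 (limma adjusted p = 0.00311). At day 29 it had -0.20, -0.10, -0.19, -0.39 and -0.24 after 2000 mg/kg, against -0.02, 0.10 and 0.26 as lowest, median and highest in vehicle animals, a fall without overlap of 0.33 ± 0.06 (limma adjusted p = 0.000155). Hadha, the hydratase and dehydrogenase subunit of the trifunctional protein, fell by 0.20 ± 0.06 at day 8 (limma adjusted p = 0.0143) and by 0.27 ± 0.06 at day 29 (limma adjusted p = 0.00186). Its second cluster had -0.06 ± 0.05 at day 8 (limma adjusted p = 0.441) and fell by 0.21 ± 0.05 at day 29 (limma adjusted p = 0.00357), so the 2 probe groups differ on the day 8 call. Hadhb, the thiolase subunit that shares the promoter bases shown above, had 0.14 ± 0.09 at both days (limma adjusted p = 0.28 and 0.306).

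Hadh, the short-chain hydroxyacyl-CoA dehydrogenase, had -0.05, 0.01, -0.04, -0.17 and -0.17 after 2000 mg/kg at day 29, against 0.01, 0.07 and 0.11 in vehicle animals, a fall of 0.15 ± 0.04 (limma adjusted p = 0.00544). The highest treated animal came up to the lower edge of the vehicle range. Acadvl, the very-long-chain dehydrogenase, fell by 0.17 ± 0.05 (limma adjusted p = 0.0262), a call lost without vehicle replicate 2 or 3 or 2000 mg/kg replicate 4 or 5 (adjusted p up to 0.0966). The rise was that of Eci1, the mitochondrial enoyl-CoA isomerase, at day 8 by 0.18 ± 0.06 (limma adjusted p = 0.0246), lost without vehicle replicate 1 or 6 or 2000 mg/kg replicate 1 or 6 (adjusted p up to 0.0748). Acadl, Acads, Acaa2, the thiolase, and Decr1, the dienoyl-CoA reductase, were called in none of the comparisons with vehicle, with log2 fold changes between -0.16 and 0.17. Acadl passed at day 29 without 2000 mg/kg replicate 2 (limma adjusted p = 0.0345). The Acaa2 groups at day 8 did not overlap, at 0.07 to 0.21 after 2000 mg/kg against -0.17 to 0.06 in vehicle animals, yet its adjusted p was 0.314 (limma).

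Of the 3 measured peroxisomal genes 3 rose at day 8, 2 at day 29 and 0 at 200 mg/kg. Of all clusters 9.32%, 12.1% and 1.37% rose in the same comparisons. The median log2 fold change of the peroxisomal genes and of the mitochondrial enzymes was 0.58 and -0.02 at day 8, 0.47 and -0.07 at day 29, and 0.05 and -0.11 at 200 mg/kg. These medians rest on 3 and 10 genes, their difference was not tested, and the uptake group of 4 had 1.00, 0.68 and 0.17. Without Cd36 and Aqp7, its 2 genes not shown to be stored at 8 or more in every animal, the uptake group, then Fabp1 and Acsl1, had -0.01, -0.22 and -0.15. The 24 other peroxisomal genes, given further below, had medians of 0.07, 0.08 and 0.02. Of those 24, 4 rose and 5 fell at day 8, 4 and 6 at day 29, and 1 and 2 at 200 mg/kg. Ehhadh, which carries out the middle steps of peroxisomal beta-oxidation, had 0.42, 0.61 and 0.67 as lowest, median and highest after 2000 mg/kg at day 8, against -0.08, -0.04 and 0.15 in vehicle animals. The groups were apart, and the rise was 0.58 ± 0.08 (limma adjusted p = 3.82e-06). Ehhadh at day 29 had 0.26, 0.47, 0.16, 0.34 and 0.19 after 2000 mg/kg, against -0.45, -0.31 and 0.06 in vehicle animals, a rise of 0.53 ± 0.08 with no overlap (limma adjusted p = 2.87e-05). The 200 mg/kg animals ran from -0.38 through -0.22 to 0.07, at 0.05 ± 0.08 against vehicle (limma adjusted p = 0.895). Every 2000 mg/kg animal lay above them, by 0.48 ± 0.08 (limma adjusted p = 0.000288).

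Pex11a had 0.30, 0.95 and 1.13 after 2000 mg/kg at day 8, against -0.55, -0.06 and 0.11 in vehicle animals. No treated animal overlapped, and the rise was 1.01 ± 0.14 (limma adjusted p = 6.26e-06). Pex11a at day 29 had 0.18, 0.22, 0.23, 0.16 and -0.16 after 2000 mg/kg, against -0.64, -0.35 and -0.03 in vehicle animals, a rise of 0.47 ± 0.15 (limma adjusted p = 0.0256). Replicate 5 lay inside the vehicle range, and the call was lost when any of 6 of 11 animals was left out (vehicle replicates 5 and 6 and 2000 mg/kg replicates 1 to 4), with adjusted p up to 0.0669. Pex11a after 200 mg/kg ran from -0.41 through -0.19 to 0.36, at 0.21 ± 0.14 (limma adjusted p = 0.583).

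Hsd17b4, the D-bifunctional protein for branched and very long chains, had 0.02, 0.17 and 0.31 after 2000 mg/kg at day 8, against -0.08, 0.02 and 0.06 in vehicle animals. The ranges overlapped, and the rise was 0.16 ± 0.05 (limma adjusted p = 0.0159), lost without 2000 mg/kg replicate 1 (adjusted p = 0.0538). At day 29 it had -0.13, -0.05, 0.02, -0.13 and -0.09, against -0.19, 0.00 and 0.09 in vehicle animals, at -0.07 ± 0.05 (limma adjusted p = 0.376). After 200 mg/kg it ran from -0.18 through -0.12 to -0.05, at -0.11 ± 0.05 (limma adjusted p = 0.281). Of the 3 enzymes found in both organelles, Ech1, a dienoyl-CoA isomerase, rose by 0.22 ± 0.07 at day 8, lost without 2000 mg/kg replicate 6 (limma adjusted p = 0.0522), and passed at day 29 only without vehicle replicate 2 (limma adjusted p = 0.0317). Eci2, an enoyl-CoA isomerase, rose by 0.31 ± 0.06 at day 8 and had -0.09 ± 0.07 at day 29. Crat, carnitine acetyltransferase, had 0.27 ± 0.11 and -0.25 ± 0.12 and was called at neither day, though at day 8 it passed without 2000 mg/kg replicate 2 (limma adjusted p = 0.0168). Plin2 and Plin5, which coat lipid droplets, were not called in any comparison with vehicle, with log2 fold changes between -0.42 and 0.29. Plin2 passed at day 8 without 2000 mg/kg replicate 2 or 5 (limma adjusted p down to 0.0201) and at 200 mg/kg without 200 mg/kg replicate 1 (0.0492).

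**Figure D3:**
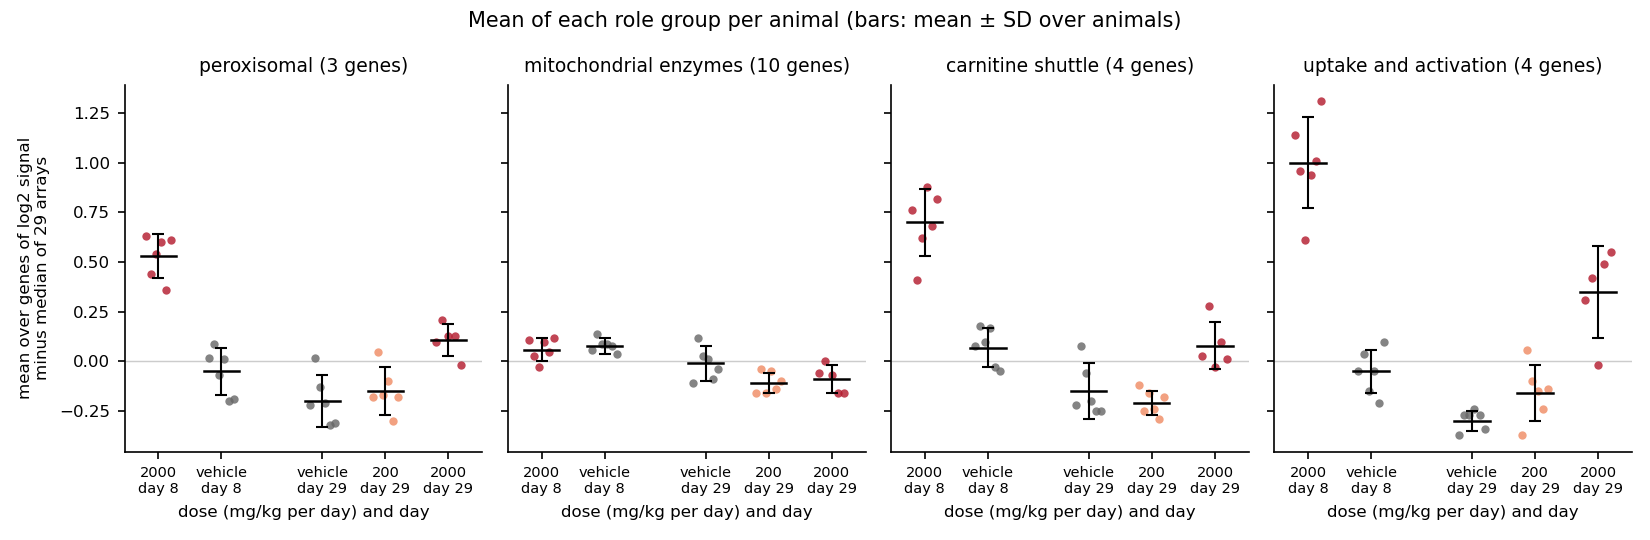
Mean over the genes of 4 role groups in each animal, as log2 signal minus the median over 29 arrays, by dose and day. Points are animals and black bars the mean ± SD over animals. Uptake genes averaged 1.00 ± 0.23 after 2000 mg/kg at day 8 against -0.05 ± 0.11 in vehicle animals (SD, n = 6 each), while the mitochondrial enzymes averaged 0.06 ± 0.06 against 0.08 ± 0.04. Within the uptake group after 2000 mg/kg at day 8, Cd36 and Aqp7 averaged 1.76 and 2.18, and Fabp1 and Acsl1 -0.07 and 0.11.

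The receptor itself was higher with the high dose. Ppara had 0.00, 0.08 and 0.26 as lowest, median and highest after 2000 mg/kg at day 8, against -0.54, -0.32 and -0.14 in vehicle animals. The groups did not overlap, and the rise was 0.42 ± 0.12 (limma adjusted p = 0.0126). At day 29 the 2000 mg/kg animals had 0.32, 0.30, 0.27, 0.25 and -0.01, against -0.91, -0.22 and 0.10 in vehicle animals, a rise of 0.48 ± 0.13 (limma adjusted p = 0.00598). Here replicate 5 fell inside the vehicle range, whose lowest value belonged to the array that stood apart, replicate 1. Without that array the rise was 0.35 and still passed the test. The 200 mg/kg animals ran from -0.20 through 0.12 to 0.49, at 0.35 ± 0.12 (limma adjusted p = 0.131), and at 0.22 without vehicle replicate 1.

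Vnn1, the pantetheinase, known as a PPAR-alpha target in mouse liver, had 0.37, 0.56 and 0.70 after 2000 mg/kg at day 8, against -0.13, 0.04 and 0.25 in vehicle animals, a rise of 0.49 ± 0.10 with no overlap (limma adjusted p = 0.000771). At day 29 it had -0.14, 0.09, 0.00, 0.00 and 0.01 after 2000 mg/kg, against -1.09, -0.63 and -0.15 in vehicle animals. The treated animals all lay above the vehicle animals, if narrowly at one edge, with a rise of 0.61 ± 0.11 (limma adjusted p = 9.88e-05). Vnn1 after 200 mg/kg ran from -0.64 through -0.36 to -0.22, at 0.23 ± 0.10 (limma adjusted p = 0.29) or 0.14 without vehicle replicate 1, and 2000 mg/kg exceeded it by 0.38 ± 0.11 (limma adjusted p = 0.0222). That difference between doses was lost without 200 mg/kg replicate 1 or 2000 mg/kg replicate 2 or 5 (adjusted p up to 0.0626).

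Cyp4a1, the fatty acid omega-hydroxylase that is a standard readout of PPAR-alpha activation in rats, was not called. It had 0.14, 0.29 and 0.36 after 2000 mg/kg at day 8, against 0.05, 0.17 and 0.19 in vehicle animals. The ranges overlapped, and the difference of 0.13 ± 0.07 had a 95% interval from -0.01 to 0.28 (limma adjusted p = 0.217). Cyp4a1 at day 29 had -0.08, 0.00, -0.12, -0.08 and -0.16 after 2000 mg/kg, against -0.39, -0.06 and 0.19 in vehicle animals, at -0.03 ± 0.07 with an interval from -0.18 to 0.12 (limma adjusted p = 0.834). After 200 mg/kg it ran from -0.37 through -0.10 to -0.06, at -0.11 ± 0.07 (limma adjusted p = 0.561), and between -0.17 and -0.06 when single animals were left out, the first without vehicle replicate 1. Because levels are not in the values, it could not be seen how near its probes were to their upper limit. Cyp4a8 and Cyp4a3, related hydroxylases on the list of other targets, are given here after their values were seen. Cyp4a8 had -0.19, -0.10 and 0.08 after 2000 mg/kg at day 8, against -1.28, -0.62 and -0.47 in vehicle animals, a rise without overlap of 0.65 ± 0.16 (limma adjusted p = 0.0043). It rose by 0.72 ± 0.17 after 2000 mg/kg at day 29 (limma adjusted p = 0.00246) and by 0.96 ± 0.16 after 200 mg/kg (limma adjusted p = 0.000783). Cyp4a3 had 0.03 ± 0.04 at day 8 and fell by 0.12 ± 0.04 at day 29 (limma adjusted p = 0.0384). Genes of this family are alike in sequence, so probes may share signal between them.

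Pdk4 blocks pyruvate oxidation when fat is burnt. At day 8 it had -0.87, 0.07 and 0.97 after 2000 mg/kg, against -0.49, 0.35 and 0.70 in vehicle animals, a wide overlap with a difference of -0.06 ± 0.31 (limma adjusted p = 0.936). Pdk4 at day 29 had -0.56, -0.41, -0.09, -0.73 and -0.76 after 2000 mg/kg, against -0.18, 0.44 and 0.99 in vehicle animals. Replicate 3 was the treated animal within the vehicle range, and Pdk4 fell by 0.96 ± 0.33 (limma adjusted p = 0.0369). The call was lost when any of 8 of 11 animals was left out (vehicle replicates 2, 3, 5 and 6 and 2000 mg/kg replicates 1, 2, 4 and 5), with adjusted p up to 0.0868, and also with quantile normalization (limma adjusted p = 0.0993). Its values after 200 mg/kg spread from -1.24 through -0.67 to 0.86, at -0.88 ± 0.31 (limma adjusted p = 0.152, and 0.0228 without 200 mg/kg replicate 1). Angptl4, a secreted inhibitor of lipoprotein lipase and known PPAR target, had -0.51 ± 0.23 at day 8 and -0.42 ± 0.24 at day 29, and Creb3l3, a liver transcription factor of the fasting response, had 0.06 ± 0.05 and 0.03 ± 0.05. None of these values passed the test (limma adjusted p of 0.135 or more).

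The high-dose effect at day 29 was compared with that at day 8, in groups that share no animals. The log2 fold change was smaller in signed value at day 29 for 27 of the 32 genes, as it was for 46.4% of all clusters. By the test of the difference itself, 0 genes rose and 1 fell, where 0.472% of all clusters rose and 0.304% fell (0.775% in either direction). At an unadjusted p below 0.05, limma gave 0 higher and 12 lower, beside 4021 of all 27342 clusters in either direction. Eci2 differed by -0.39 ± 0.09 (limma adjusted p = 0.0405), a call lost when any of 16 of the 23 animals was left out (adjusted p up to 0.0764), all but vehicle day 8 replicates 1 and 3, vehicle day 29 replicates 1 and 2, 2000 mg/kg day 8 replicates 2 and 3 and 2000 mg/kg day 29 replicate 2. Its values were -0.08, 0.03, -0.15, -0.21 and -0.18 after 2000 mg/kg at day 29 and -0.15, -0.05 and 0.11 in vehicle animals, while at day 8 they were 0.11, 0.36 and 0.55 after 2000 mg/kg and -0.06, 0.03 and 0.16 in vehicle animals. Cpt1b differed most in size, by -1.22 ± 0.30, and missed the threshold (limma adjusted p = 0.0515), which it passed without vehicle day 29 replicate 2, 2000 mg/kg day 8 replicate 2 or 3 or 2000 mg/kg day 29 replicate 2 (down to 0.0189). Without vehicle day 29 replicate 1, Hsd17b4 (0.037) and Acsl1 (0.0469) passed, and without 2000 mg/kg day 8 replicate 2 Crat did (0.0421). Pdk4 came next in size at -0.90 ± 0.46 (limma adjusted p = 0.362), then Aqp7 at -0.77 ± 0.33 (0.28), Plin2 at -0.56 ± 0.19 (0.158) and Pex11a at -0.54 ± 0.21 (0.214). Cd36 differed by -0.44 ± 0.32 (0.565), also short of the threshold. For Ppara and Vnn1 they were 0.06 ± 0.18 and 0.12 ± 0.15. The 11 macrophage markers differed the other way between the days (median 0.97), 0 of them past the threshold and 11 at an unadjusted p below 0.05 (limma), and their part in these differences was not tested.

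**Figure D4:**
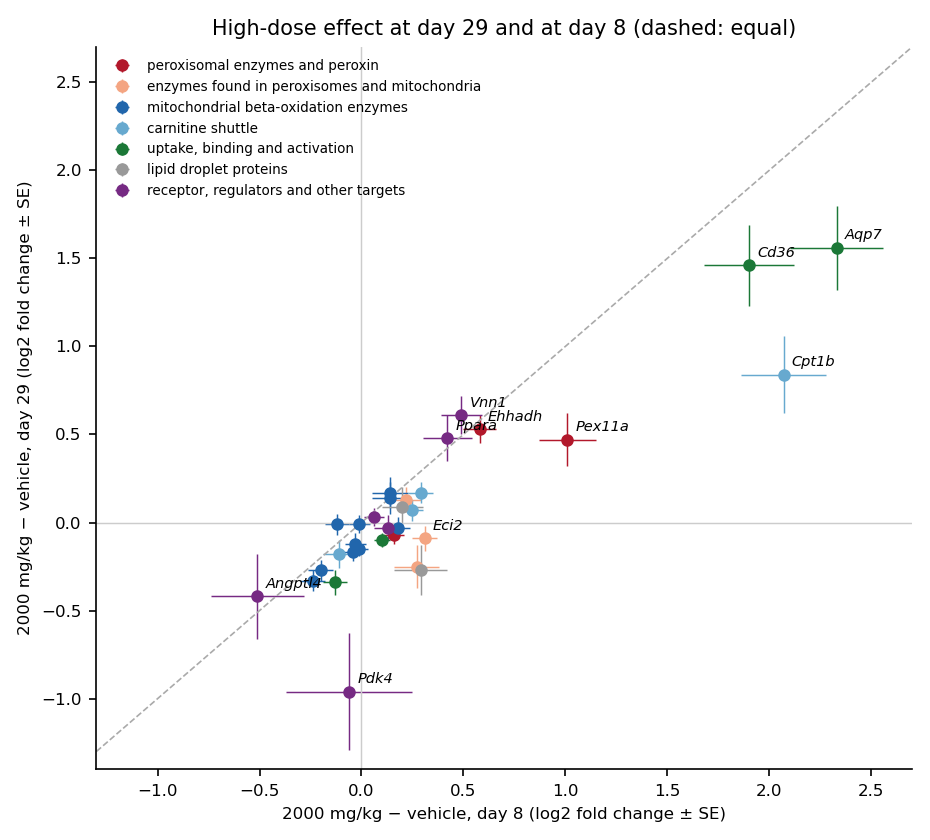
Log2 fold change of the 32 genes for 2000 mg/kg against vehicle at day 29 (vertical) and at day 8 (horizontal), with SE bars and colours by role. Most genes, 27 of 32, lie below the dashed line of equal effects, and Cpt1b, Pdk4 and Aqp7 are farthest below it.

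Vehicle livers also differed between the days. At day 29 against day 8, 0 of the 32 genes rose and 4 fell, where 0.962% of all clusters rose and 1.77% fell (2.73% in either direction), and the median of the 32 was -0.16 against 0.00 over all clusters. At an unadjusted p below 0.05, limma gave 0 higher and 17 lower, beside 4999 of all 27342 clusters in either direction. The falls were those of Vnn1 at -0.67 ± 0.10, Hadhb at -0.32 ± 0.09, Ech1 at -0.26 ± 0.07 and Creb3l3 at -0.23 ± 0.05. The Hadhb call was lost when any of 8 of 12 animals was left out, with limma adjusted p up to 0.0972. For Ech1 it was any of 6 of 12 (up to 0.0883). Vehicle day 29 replicate 1 was among these animals for both genes. Vnn1 in vehicle animals ran from -1.09 through -0.63 to -0.15 at day 29, against -0.13 through 0.04 to 0.25 at day 8. The count was 2 without vehicle day 29 replicate 1, 4, 5 or 6 or vehicle day 8 replicate 2 or 4, and 12 without vehicle day 29 replicate 2. All 11 macrophage markers also fell between these vehicle groups (median -1.11), and their part in these differences was not tested.

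Further genes of the pathway, taken from lists made by name with earlier results of these data known, gave a mixed picture. Of 37 other PPAR-alpha targets 13 rose and 5 fell at day 8, 10 rose and 8 fell at day 29, and 3 rose and 3 fell at 200 mg/kg. Over all clusters the shares that rose and fell were 9.32% and 9.32%, 12.1% and 9.55%, and 1.37% and 1.42%. The medians of the 37 were 0.07, 0.02 and 0.00. Acot1, a cytosolic acyl-CoA thioesterase, rose by 4.85 ± 0.34 and 2.90 ± 0.36 at the 2 days of 2000 mg/kg and had -0.15 ± 0.34 at 200 mg/kg. Me1, malic enzyme, rose by 1.84 ± 0.12, 2.06 ± 0.13 and 0.75 ± 0.12 in the same 3 comparisons. Abcd2, a peroxisomal transporter of very-long-chain acyl-CoA, rose by 1.29 ± 0.13 and 1.55 ± 0.14 and had 0.21 ± 0.13 at 200 mg/kg. Acsm3, a mitochondrial medium-chain acyl-CoA synthetase, fell in all 3, by 1.06 ± 0.14, 1.69 ± 0.14 and 0.50 ± 0.14. Acaa1b, a thiolase gene related to Acaa1a, is given after its values were seen. After 2000 mg/kg at day 8 it had 0.79, 1.15 and 1.27 as lowest, median and highest, against -0.54, -0.18 and 0.01 in vehicle animals. At day 29 it had 0.40, 0.55 and 1.16, against -0.44, -0.21 and 0.00, so the groups were apart at both days. Acaa1b after 200 mg/kg ran from -0.48 through -0.16 to 0.14.

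Of 18 other genes of mitochondrial oxidation and ketone bodies, 5 rose and 3 fell at day 8, 4 rose and 3 fell at day 29, and 0 rose and 2 fell at 200 mg/kg. Of all clusters, 18.6%, 21.6% and 2.78% were called in either direction in these 3 comparisons. The largest changes that passed the test were rises at 2000 mg/kg, of Acacb, the acetyl-CoA carboxylase at the mitochondrion, by 0.49 ± 0.09 at day 8, of Acat1, the acetoacetyl-CoA thiolase, by 0.47 ± 0.11 at day 29, of Acad11 by 0.39 ± 0.04 at day 8 and of Acad9 by 0.39 ± 0.05 at day 29. Of 24 other peroxisomal genes 4 rose and 5 fell at day 8, 4 rose and 6 fell at day 29, and 1 rose and 2 fell at 200 mg/kg, beside the same shares of all clusters. Acot8, a peroxisomal thioesterase, rose by 0.56 ± 0.08 and 0.45 ± 0.08 at the 2 days. Acox2, a branched-chain acyl-CoA oxidase, fell by 0.50 ± 0.08 and 0.31 ± 0.09, Amacr, a racemase of branched chains, by 0.35 ± 0.10 and 0.52 ± 0.10, and Hacl1, the lyase of phytanic acid breakdown, had -0.20 ± 0.11 at day 8 and fell by 0.93 ± 0.12 at day 29. Among 9 receptor partners 1 rose and 3 fell at day 8 and 2 rose and 2 fell at day 29, beside the same 18.6% and 21.6% of all clusters. Rxra, the retinoid X receptor that pairs with PPAR-alpha, fell by 0.23 ± 0.04 and 0.24 ± 0.05, Ppard by 0.29 ± 0.06 and 0.25 ± 0.06, and Nr1h3, the liver X receptor alpha, by 0.34 ± 0.07 at day 8. Each value named here as a rise or fall had a limma adjusted p below 0.05.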

How the data were processed

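Liver RNA of 29 rats was measured on Affymetrix whole-transcript arrays, 1 per animal, which the labels call biological replicates. The authors deposited log2 values for 27342 transcript clusters, each with a median of 0 over the arrays. MAS5 and PLIER are named in the submitters' processing notes, while normalization and centring are steps for which no source here gives details. Folds of dim genes would be understated if an offset preceded the log. The number of arrays limits the precision. A rounding pattern in the stored digits showed 7797 clusters stored at 8 or above in every animal.

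Symbols came from the platform annotation (1 symbol for 15097 clusters, several for 323, none for 11922), and 15067 gene identifiers matched the GRCr8 gene table. For a gene with 2 clusters, the one with stored values of 8 or more, then the lowest probe number, was taken. The genes and lists were chosen with earlier results of these data known. Groups were compared with limma 3.58.1 in R 4.3.3 (5 group means, eBayes, Benjamini-Hochberg over 27342 clusters, threshold 0.05, two-sided), checked on simulated data. Per-animal values are given for genes called with a log2 fold change of at least 0.5 in size against vehicle and for a set chosen by name (Ppara, Ehhadh, Acaa1a, Hsd17b4, Cyp4a1, Cpt1a, Cd36, Fabp1, Acsl1 and Pdk4). Other genes are given by counts, ranges or fold changes, and the per-animal values of Acadm, Hadh, Acaa2 and Eci2 were chosen after they were seen. Of each other list, up to 4 called genes of largest change were named. Cyp4a8, Cyp4a3 and Acaa1b were added after their values were seen. The highest correlation between 2 arrays was 0.73. Neither slide nor scan date entered a fit. Alternatives were quantile normalization, array medians at 0, clusters with 1 symbol, clusters with stored values of 8 or more, trend and robust settings, the compared groups alone, array weights, the replicate number as a block, a threshold of 0.01, the other Hadha cluster and leaving out each animal.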

Additional observations from a re-analysis of the deposited data

Results flagged for a closer look

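Single animals stood apart from the rest of their group in 6 of 65 checks of the genes given per animal, by a gap to the nearest animal that was large against the group's range. Chance gives about 1 in 20. Ehhadh stood high in vehicle day 8 replicate 2 (0.15, next 0.00). Pex11a stood low in 2000 mg/kg day 29 replicate 5 (-0.16, next 0.16), and Ppara in the same animal (-0.01, next 0.25). Aqp7 stood low in 2000 mg/kg day 29 replicate 3 (-0.11, next 1.03). In vehicle day 29 replicate 1, the array with the widest spread over clusters, Ppara stood low at -0.91 (next -0.24) and Acsl1 at -0.11 (next -0.01). Eci2 differed in its high-dose effect between day 29 and day 8, by -0.39 in the test of the difference (limma adjusted p = 0.0405).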

How the results depend on the processing

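The counts of genes and the group medians that are not named here stayed within 1.5 times their value, or within 1 SD, in all alternatives run, and none turned direction past the threshold. The median of the 4 uptake genes was 0.81, 0.61 and 0.09 with quantile normalization for 2000 mg/kg at day 8, at day 29 and 200 mg/kg, and -0.01, -0.22 and -0.15 with stored values of 8 or more, which leaves 2 genes. That filter left 5 rises at day 29 and 3 genes higher at 2000 than at 200 mg/kg. Falls at day 8 numbered 1 at a threshold of 0.01 and 1 with the other Hadha cluster. Falls at 200 mg/kg numbered 3 with quantile normalization, 2 with clusters of 1 symbol, 4 with stored values of 8 or more, 0 with the compared groups alone and 0 at 0.01. Genes with a lower high-dose effect at day 29 than at day 8 numbered 2 with clusters of 1 symbol, 0 with the compared groups alone, 4 with array weights and 0 at 0.01. Falls between vehicle groups numbered 2, 7 and 1 with the compared groups alone, array weights and 0.01. With the replicate number as a block, 2 genes fell at 200 mg/kg, 0 differed between days, and no other count moved by over 1.5 times. The numbers do not pair the animals, since correlations of same-numbered animals ran from -0.28 to 0.30. Leaving out each animal gave 11 to 15 rises and 2 to 2 falls at day 8, 6 to 9 and 4 to 8 at day 29, 0 to 5 falls at 200 mg/kg, 4 to 6 genes higher at 2000 than at 200 mg/kg, 0 to 3 lower effects at day 29 than at day 8, and 2 to 12 falls between vehicle groups. The uptake median then ran from 0.61 to 0.75 at day 29 and from 0.08 to 0.20 at 200 mg/kg. Over all clusters, counts of calls moved by over 1.5 times with stored values of 8 or more (3252 and 3564 of 7797 at the 2 days of 2000 mg/kg, against 5096 and 5910 of 27342) and with the compared groups alone (340 calls at 200 mg/kg and 136 between vehicle groups, against 761 and 746). Array weights gave 1773 calls between vehicle groups and 673 for the difference between days, against 746 and 212, and quantile normalization gave 102 for the difference between days. Signal over background could not be assessed from centred values.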
